A study of Arabidopsis thaliana with 10 samples.

Results

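The members described here are the probe sets of the Affymetrix Arabidopsis array that carry 150 consecutive ID numbers, with any suffix, a run known as the array's block for genes of the chloroplast (plastid) and mitochondrial genomes. There were 150 such probe sets among the 22746 tested. The rule used their ID number and no measured value, but it was set with earlier results of these data known. By the platform annotation 77 read plastid genes (76 symbols, since rps12 had 2 probe sets), 13 read mitochondrial genes, 15 read nuclear genes and 45 carried no gene. The name "organelle transcripts" therefore holds for the 77 and the 13, which are described first. The mean intensity over all arrays was below 16 in 4 of the 77 plastid and 7 of the 13 mitochondrial probe sets, near the dim end of the scale, and all members stayed in every count.

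Expression was measured in whole Arabidopsis thaliana seedlings of 12 days, grown in a chamber with long days and without stress, in 5 lines with 2 biological replicates, and so 2 arrays, each. FL3 constitutively expressed the full-length TaSIN transgene, and ΔC26 and ΔC27 expressed a truncated TaSIN without its transmembrane motif. VC carried the empty vector and was, like the TaSIN lines, a transformed line, whereas Col-0 was the untransformed wild type. VC and Col-0 were the controls. Each transgenic genotype was 1 line, apart from the truncated form with 2, and no probe set was annotated as TaSIN, so the transgene's own level was not measured.

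The plastid genome of land plants encodes a part of each photosynthetic complex, of the plastid ribosome and of the plastid's own RNA polymerase, while the nucleus supplies the remaining subunits. In tobacco, that plastid-encoded polymerase reads mainly the photosynthesis genes and a nuclear-encoded phage-type polymerase reads mainly housekeeping genes, and many genes are read together as operons and cut into smaller RNAs afterwards. The mitochondrial genome encodes subunits of the respiratory chain, ribosomal proteins and the proteins that attach haem to c-type cytochromes. Organelle RNAs mostly lack the long poly(A) tails of nuclear mRNAs. The labels name a kit that, as sold, starts cDNA synthesis on poly(A), and how this bears on the values below was not tested.

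The medians of the 10 arrays lay between 41.7 and 44.2 intensity units in the deposited values. Their normalization is not known and may have set this, so it does not show that the arrays were alike before it. Replicate arrays of 1 line differed, over all probe sets, with an SD of 0.206 to 0.293 on the log2 scale in 4 lines and of 0.415 in ΔC27. Over the plastid probe sets the order was another: 0.202 in ΔC27, 0.218 in FL3, 0.273 in Col-0, 0.398 in VC and 0.429 in ΔC26. An SD of this kind leaves out a shift shared by all plastid probe sets, so it does not rank the lines by replicate agreement. The median plastid shift from replicate 1 to replicate 2 was 0.30 for Col-0, 0.24 for VC and 0.18 for ΔC27. For FL3 and ΔC26 it was 0.17 and -0.12. Col-0 replicate 2 stood apart from the rest in the plastid probe sets, as given next. Of 17 listed markers of green leaf tissue 2 could be matched by name to a probe set. They were LHCB4.1, a light-harvesting protein, at 3791 to 5817 units, and RCA, which activates Rubisco, at 4160 to 6460. Of 12 listed root markers the 2 matched, the root hair expansins EXPA7 and EXPA18, were at 7.55 to 54.0. In whole seedlings fewer green cells and less plastid RNA per cell cannot be told apart.

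The first comparison set the 2 controls against each other. Plastid transcripts were highest in the wild type: Col-0 had the highest line mean in 69 of 77 plastid probe sets (89.6%), against 21.3% of all probe sets, and VC had it in none. The VC minus Col-0 difference on the log2(intensity + 16) scale, used throughout, was below 0 in 72 of 77 plastid probe sets (50.5% of all probe sets), with a median of -0.41 against 0.00 over all probe sets. In 51 of the 77 both VC arrays lay below both Col-0 arrays, a share of 66.2% where 20.5% of all probe sets did. None of the 150 members passed the test of VC against Col-0 (limma, Benjamini-Hochberg adjusted p under 0.05), where 0.0264% of all probe sets did. At an unadjusted p under 0.05 there were 43 of the 150 (28.7%), 36 of them plastid, against 7.01% of all probe sets.

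The cytochrome b6f gene petA, for example, was at 1198 and 2160 units in VC and at 2504 and 2939 in Col-0, a log2 difference of -0.75 ± 0.28 (SE). The ribosomal protein gene rpl20 was at 65.4 and 114 in VC and 142 and 295 in Col-0, a difference of -1.11 ± 0.34, the lowest among the plastid probe sets. In both genes the VC arrays lay below the Col-0 arrays, and neither difference passed (limma, Benjamini-Hochberg adjusted p = 0.63 and 0.52). The direction was shared by all gene groups. All 11 ndh, all 5 psa, all 9 rpl, all 11 rps and all 4 rpo probe sets were below 0, with medians of these groups from -0.18 for psa to -0.60 for ndh. So were 13 of 15 psb, 5 of 6 pet, 5 of 6 atp and 9 of 10 other plastid probe sets. Their group medians were -0.39, -0.38, -0.20 and -0.62.

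The 5 plastid probe sets above 0 were atpA, ycf1, petG, psbK and psbI. The gene atpA (245024_at) encodes the alpha subunit of the plastid ATP synthase and was at 729 and 1106 units in VC against 295 and 298 in Col-0. Both VC arrays lay above both Col-0 arrays, the opposite order to its neighbour atpF, at 279 and 313 in VC against 468 and 556 in Col-0. The atpA difference was 1.55 ± 0.27 and did not pass (limma, Benjamini-Hochberg adjusted p = 0.13). For ycf1, a protein of the plastid import machinery, the difference was 0.46 ± 0.13.

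The Col-0 arrays differed from each other. Col-0 replicate 2 was the highest of the 10 arrays in 60 of 77 plastid probe sets (77.9%), against 7.4% of all probe sets, and its plastid median was 0.36 above the mean of the 4 control arrays, against 0.07 for Col-0 replicate 1. The lowest array was ΔC27 replicate 1 in 32 of the 77, VC replicate 1 in 15 and ΔC26 replicate 2 in 12. Without Col-0 replicate 2, Col-0 still had the highest line mean in 53 of 77 plastid probe sets (68.8%, against 26.8% of all probe sets), and the median VC minus Col-0 difference was -0.28. Mitochondrial probe sets leaned the same way by less, with 11 of 13 below 0 and a median of -0.16.

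**Figure D1:**
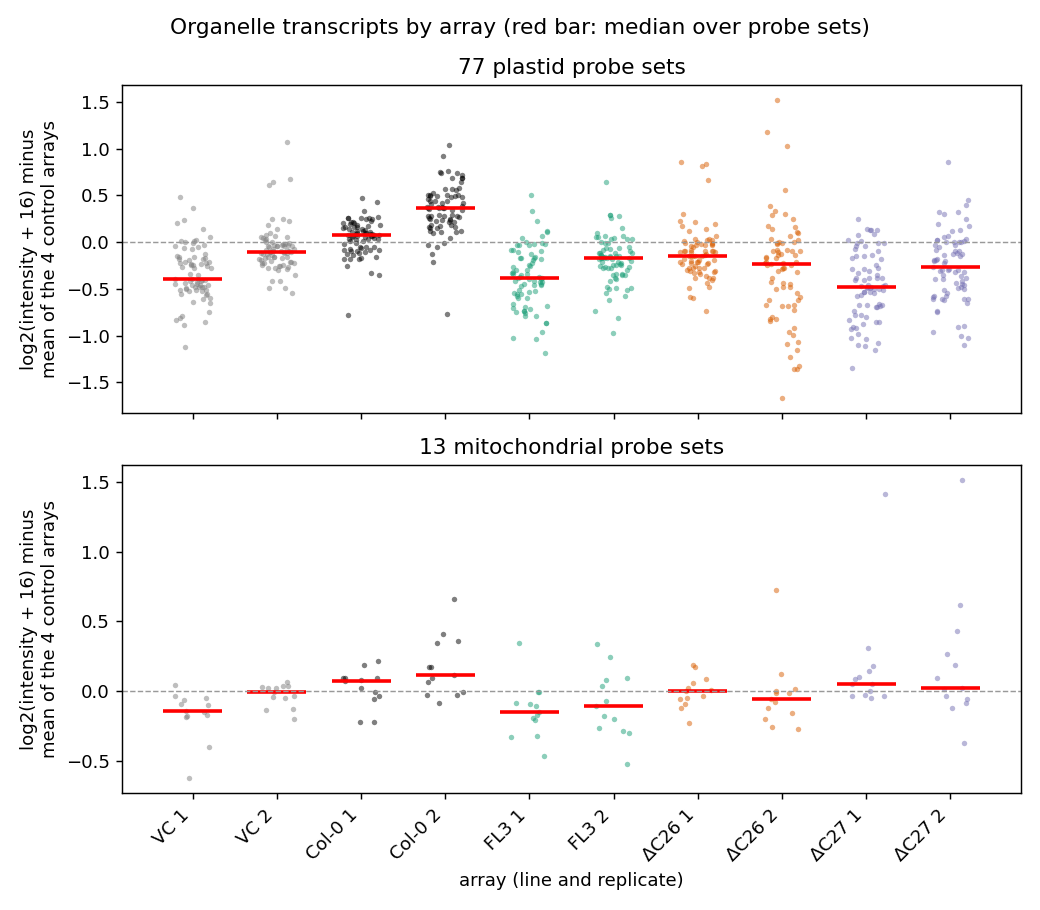
Difference of each array from the mean of the 4 control arrays on the log2(intensity + 16) scale (vertical axis) by array (horizontal axis), for 77 plastid (top) and 13 mitochondrial probe sets (bottom), where each point is a probe set and the red bar is the median. The plastid medians of Col-0 replicates 1 and 2 are 0.07 and 0.36, and those of the other 8 arrays lie between -0.48 and -0.11.

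Each TaSIN line was then compared with the mean of VC and Col-0. All these comparisons share the 4 control arrays, so the lines' values are given side by side and not correlated. The plastid median was -0.30 in FL3, -0.20 in ΔC26 and -0.37 in ΔC27, with 65, 61 and 64 of the 77 probe sets below 0, against 52.2%, 49% and 49.7% of all probe sets. Leaving out 1 array at a time moved it from -0.38 (FL3 replicate 2 out) to -0.17 (FL3 replicate 1 out) in FL3 and from -0.26 to -0.15 in ΔC26. In FL3 3 of the 150 members passed (2%, against 2.69% of all probe sets), and in ΔC26 3 passed (2%, against 2.71%). In ΔC27 31 passed (20.7%, against 16.7%), 5 higher and 26 lower. Of the 77 plastid members, 23 fell in ΔC27 (29.9%, where 8.49% of all probe sets were called lower) and 0 rose, with 13 of the 77 at a log2 difference above 0. The lowest line mean was that of ΔC27 in 38 of the 77 (49.4%), against 26.1% of all probe sets.

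The plastid falls in ΔC27 lay mostly among genes of the photosynthetic complexes. In the psa, psb, ndh, pet and atp groups 21 of 43 probe sets fell (48.8%), with a median of -0.51. In the ribosomal and polymerase groups (rpl, rps, rpo) 1 of 24 did (4.17%), with a median of -0.26. Of all probe sets 8.49% were called lower. The difference between these shares was not tested. Among the 10 other plastid genes 1 fell (10%). Of genes read by the plastid-encoded polymerase in tobacco 3 of 7 fell (42.9%), and of genes read by the nuclear-encoded one 0 of 5, with medians of -0.39 and 0.00. In the latter list 1 of the 5 had a mean below 16. With lists this short 0 of 5 is near the 8.49% of all probe sets, and the lists were not tested against each other.

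**Figure D2:**
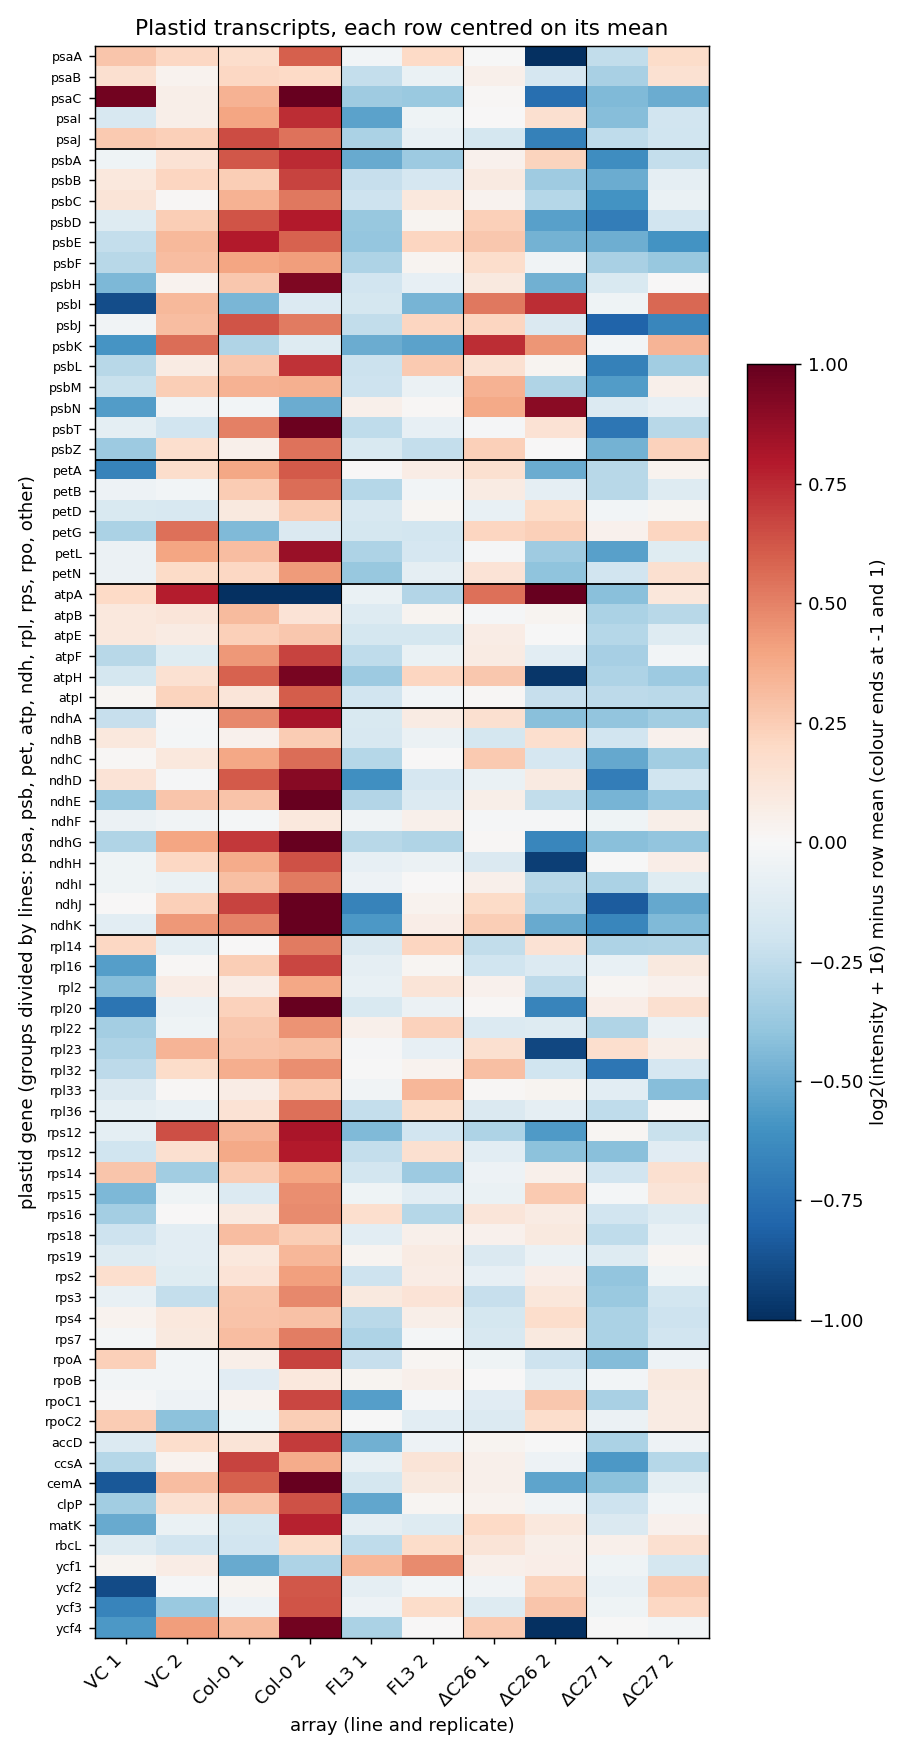
Plastid probe sets (rows, by gene group) across the 10 arrays (columns), coloured by log2(intensity + 16) minus the row's mean, red above and blue below, with colours ending at -1 and 1. Col-0 replicate 2 is the highest array in 60 of 77 rows, ΔC27 replicate 1 the lowest in 32, and atpA shows the reverse order, lowest in both Col-0 arrays.

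Photosystem II, the complex that splits water, held 15 probe sets, of which 9 fell in ΔC27 (60%, where 8.49% of all probe sets were called lower). Against VC alone 1 of the 77 plastid probe sets fell there, psbJ, as given below. The largest fall was that of psbJ (245021_at), a small subunit: it was at 755 and 962 units in VC, 1205 and 1114 in Col-0, 650 and 901 in FL3, 903 and 699 in ΔC26 and 437 and 487 in ΔC27. Both ΔC27 arrays lay below all 8 others. The log2 difference in ΔC27 was -1.08 ± 0.17, or 2.12-fold lower on the scale used (limma, Benjamini-Hochberg adjusted p = 0.0028). In FL3 and ΔC26 the differences were -0.37 and -0.32 and did not pass.

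The reaction-centre gene psbA (245047_at) was at 2310 and 2639 units in VC, 3679 and 4002 in Col-0, 1679 and 1846 in FL3, 2456 and 2794 in ΔC26 and 1547 and 2016 in ΔC27. All FL3 and ΔC27 arrays lay below all control arrays, while the ΔC26 arrays lay around those of VC. psbA fell by 0.80 ± 0.14 on the log2 scale in FL3 and in ΔC27 (limma, Benjamini-Hochberg adjusted p = 0.017 and 0.0045). The other 7 psb probe sets that fell in ΔC27 were psbB and psbC, the inner antenna proteins (-0.60 and -0.59), psbD, the partner of psbA in the reaction centre (-0.83), psbE and psbF, the cytochrome subunits (-0.91 and -0.56), and the small subunits psbL (-0.71) and psbT (-0.80).

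Not every photosystem II gene was lower. psbN (244974_at), an assembly factor gene that lies on the strand opposite to its neighbours psbT and psbH, was at 89.4 and 135 units in VC, 137 and 94.3 in Col-0, 145 and 141 in FL3, 186 and 274 in ΔC26 and 126 and 131 in ΔC27. Both ΔC26 arrays lay above all others, and psbN rose by 0.92 ± 0.20 there (limma, Benjamini-Hochberg adjusted p = 0.048). The difference was as large against VC alone and against Col-0 alone, at 0.94 and 0.90, though neither passed (adjusted p = 0.11 and 0.089). The small-subunit genes psbK and psbI, which neighbour each other, had differences of 0.71 ± 0.27 and 0.92 ± 0.30 in ΔC26 that did not pass (adjusted p = 0.2 and 0.14 in the limma fit). Neither psbN, psbK nor psbI was below 0 in ΔC27, at 0.17, 0.27 and 0.55.

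Photosystem I held 5 probe sets, and 3 fell in ΔC27 (60%, where 8.49% of all probe sets were called lower). psaJ (244967_at), a small subunit, was at 493 and 486 units in VC, 652 and 603 in Col-0, 326 and 388 in FL3, 361 and 251 in ΔC26 and 341 and 355 in ΔC27. All 6 arrays of the TaSIN lines lay below all 4 control arrays. It fell by 0.84 ± 0.15 in ΔC26 and by 0.65 ± 0.15 in ΔC27 (limma, Benjamini-Hochberg adjusted p = 0.024 and 0.016), and its difference of -0.62 ± 0.15 in FL3 did not pass (adjusted p = 0.066).

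The iron-sulphur subunit gene psaC (244932_at) was at 302 and 153 units in VC, 191 and 318 in Col-0, 111 and 110 in FL3, 148 and 80.6 in ΔC26 and 104 and 99.2 in ΔC27. Every array of the TaSIN lines again lay below every control array. The differences were near each other, at -0.97 in FL3, -0.97 in ΔC26 and -1.07 ± 0.29 in ΔC27, and that of ΔC27 passed (limma, Benjamini-Hochberg adjusted p = 0.034). The third gene, psaI, fell by 0.57 in ΔC27. The reaction-centre genes psaA and psaB had differences of -0.35 and -0.23 there that did not pass, and psaA was at 76.6 units in ΔC26 replicate 2 against 184 to 342 on the 9 other arrays.

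The NDH complex, which feeds electrons back into the photosynthetic chain, held 11 probe sets. Of these 6 fell in ΔC27 (54.5%, where 8.49% of all probe sets were called lower): ndhJ, ndhK, ndhG, ndhD, ndhC and ndhA. ndhJ (245010_at) was at 1214 and 1426 units in VC, 1945 and 2742 in Col-0, 755 and 1238 in FL3, 1384 and 976 in ΔC26 and 673 and 846 in ΔC27. Both ΔC27 arrays were below all control arrays, and Col-0 lay above all other lines. The difference in ΔC27 was -1.19 ± 0.23, the largest among the plastid probe sets (limma, Benjamini-Hochberg adjusted p = 0.0078). ndhK, ndhG, ndhD, ndhC and ndhA fell by 1.01, 0.91, 0.86, 0.70 and 0.64. ndhD also fell in FL3, by 0.80 ± 0.18 (adjusted p = 0.048 in the limma fit). Of the other 5, ndhF and ndhB had a mean below 16.

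The plastid ATP synthase held 6 probe sets, of which 3 fell in ΔC27 (50%, where 8.49% of all probe sets were called lower). The subunit genes atpB, atpE and atpI fell in ΔC27 by 0.47, 0.38 and 0.51. atpA was the exception: beside the VC and Col-0 values above it was at 607 and 515 units in FL3, 939 and 1520 in ΔC26 and 471 and 689 in ΔC27. Col-0 thus had the lowest arrays and ΔC26 overlapped VC. Against the mean of both controls atpA rose in ΔC26 by 1.18 ± 0.23 (limma, Benjamini-Hochberg adjusted p = 0.035), whereas against VC alone the difference was 0.41 and did not pass (adjusted p = 0.55). The cytochrome b6f group held 6 probe sets and 0 passed in ΔC27 (limma), with 2 at an unadjusted p under 0.05 (33.3%, against 29.1% of all probe sets). Its member nearest the threshold was the small subunit gene petL, at 65.1 and 95.3 units in VC, 88.6 and 138 in Col-0 and 42.2 and 61.7 in ΔC27, with a difference of -0.71 ± 0.22 (adjusted p = 0.052).

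**Figure D3:**
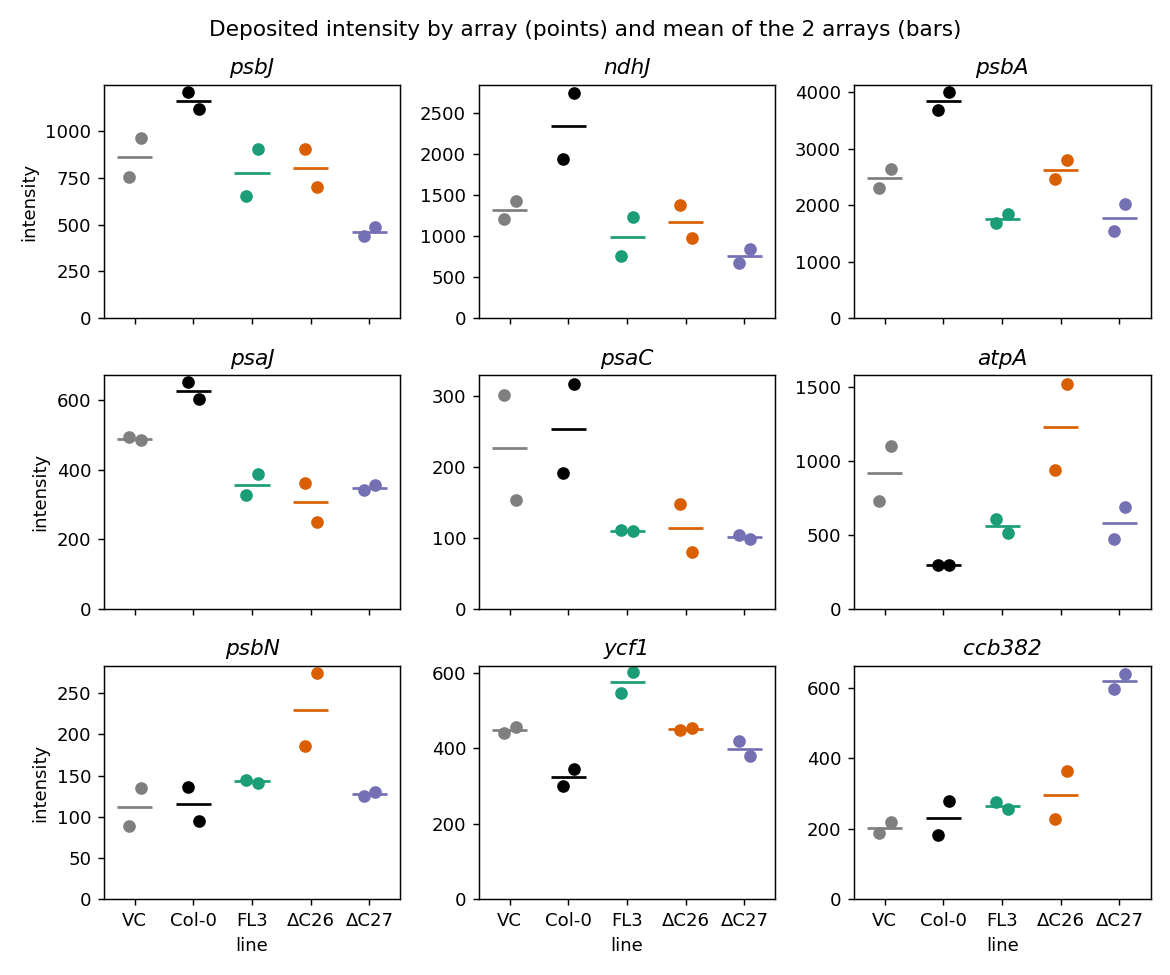
Deposited intensity (vertical axes, each from 0) by line (horizontal axes) for 8 plastid genes and the mitochondrial gene ccb382, with a point for each array and a bar for the mean of the 2 arrays. Both ΔC27 arrays lie below all others for psbJ and above all others for ccb382, and all 6 TaSIN arrays lie below the 4 control arrays for psaJ and psaC.

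The genes for plastid ribosomal proteins and for the polymerase leaned below 0 with smaller values. In ΔC27 rps7, a small-subunit protein, fell by 0.48 ± 0.14 (limma, Benjamini-Hochberg adjusted p = 0.04), and 8 of the 24 (33.3%) were at an unadjusted p under 0.05, against 29.1% of all probe sets. The 2 probe sets for rps12, whose RNA is joined by trans-splicing, had differences of -0.53 and -0.55 in ΔC27 and -0.86 and -0.54 in ΔC26 that did not pass. rpl32 had -0.63 ± 0.20 in ΔC27 (adjusted p = 0.058). rpoA, a subunit of the polymerase, had -0.48 (adjusted p = 0.12), while rpoC2 had 0.00 and the dim rpoB 0.05.

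Among the other plastid genes, ccsA, which helps attach haem to c-type cytochromes, fell in ΔC27 by 0.63 ± 0.15 (limma, Benjamini-Hochberg adjusted p = 0.018). ycf1 (244993_s_at) was at 441 and 455 units in VC, 300 and 346 in Col-0, 547 and 603 in FL3, 447 and 452 in ΔC26 and 418 and 380 in ΔC27. Both FL3 arrays were the highest, and ycf1 rose in FL3 by 0.58 ± 0.11 (adjusted p = 0.025 in the limma fit). rbcL, the large subunit of Rubisco, was at 594 to 810 units on all 10 arrays, with differences of 0.04, 0.18 and 0.19 in FL3, ΔC26 and ΔC27 that did not pass. clpP, a protease subunit, and matK, an intron-splicing protein, had -0.30 and -0.06 in ΔC27 and did not pass.

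Most of these calls depended on which control was used. Against VC alone 1 of 77 plastid probe sets fell in ΔC27, psbJ with -0.86 ± 0.19 (limma, Benjamini-Hochberg adjusted p = 0.022), where 5.55% of all probe sets were called lower. Against Col-0 alone 31 fell (40.3%, where 6.72% of all probe sets were called lower). The plastid median in ΔC27 was -0.18 against VC and -0.60 against Col-0. In FL3 it was -0.10 and -0.49, and in ΔC26 0.02 and -0.44. Against VC alone 0 of the 150 members passed in FL3 and 0 in ΔC26 (limma), where 1.72% and 0.976% of all probe sets did. Against Col-0 alone 3 passed in FL3 and 2 in ΔC26, where 1.72% and 1.78% did. Of the psaJ, psbA and ndhJ falls in ΔC27, each was past the threshold against Col-0 alone (adjusted p = 0.013, 0.0026 and 0.0053) and not against VC alone (0.11, 0.086 and 0.093).

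Single arrays also set the count. The counts here and below from fits without 1 array are given without the share of all probe sets called in the same fit. Such a fit can lose calls over the whole array, so a dependence particular to the plastid probe sets was not tested. The 23 plastid falls in ΔC27 became 3 when ΔC27 replicate 1 was left out, 9 for VC replicate 2, 10 for Col-0 replicate 2, 14 for ΔC27 replicate 2 and 15 for either FL3 array, which entered only through the shared estimate of the spread. With VC replicate 1, Col-0 replicate 1 or either ΔC26 array left out there were 16 to 26. The plastid median in ΔC27 lay between -0.48 and -0.27 over these 10 fits. Of the named falls in ΔC27, psbJ, psbA and ndhJ passed in all 10 of them, ndhD and psbT in all but that without ΔC27 replicate 1, and psaC, ndhG, psbE, ndhK and psbD lost the call in 6, 6, 5, 4 and 7 of the 10. The 3 calls in FL3 became 0 when Col-0 replicate 1 or either FL3 array was left out and 1 for either VC array or Col-0 replicate 2. The 3 in ΔC26 became 0 for VC replicate 1, either Col-0 array or ΔC26 replicate 2, 1 for either FL3 array and 9 for ΔC26 replicate 1.

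**Figure D4:**
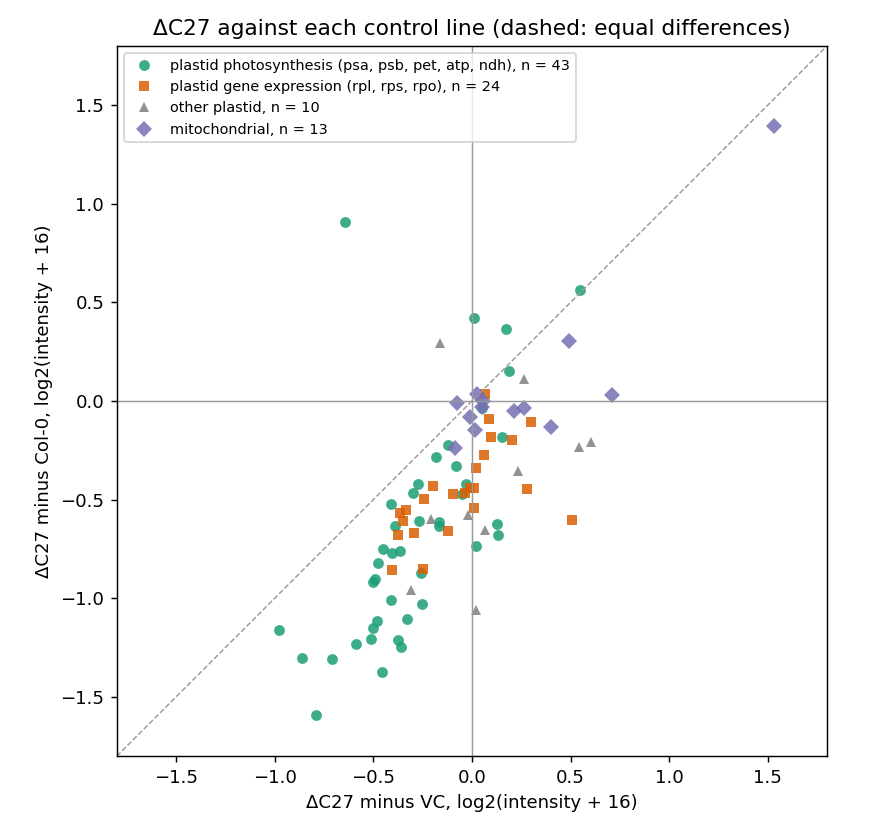
Log2 difference of ΔC27 from VC (horizontal axis) and from Col-0 (vertical axis) for the 90 organelle probe sets, by gene group, with a dashed line where both are equal. Most plastid points lie below the dashed line (plastid medians -0.18 against VC and -0.60 against Col-0), and ccb382 lies at the upper right with 1.53 and 1.39.

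The falls in ΔC27 were set beside the order of genes on the plastid genome, taken from the RefSeq gene table. The runs below were chosen after their values were seen, so they are a description only. Of all probe sets 8.49% were called lower in this comparison. Against VC alone psbJ was the only plastid probe set called lower. In 4 runs all probe sets fell: all 4 genes of psbE, psbF, psbL and psbJ fell (-1.08 to -0.56), as did all 3 of ndhC, ndhK and ndhJ (-1.19 to -0.70), both of psbD and psbC, and both of atpB and atpE. In the run from ndhD through psaC to ndhH 4 of 7 fell and all 7 were below 0. In the run of psbB, psbT, psbH, petB and petD 2 of 5 fell, and in that of atpI, atpH, atpF and atpA 1 of 4 did. Neighbouring probe sets can read parts of 1 RNA and are not independent of each other.

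For the mean of ΔC26 and ΔC27 against the controls, 24 of the 150 members passed (16%, against 13.1% of all probe sets), and 18 of the 77 plastid members fell (23.4%, where 6.15% of all probe sets were called lower). The median plastid difference was -0.30. psaJ had the lowest adjusted p among these, with -0.75 ± 0.12 (limma, Benjamini-Hochberg adjusted p = 0.0044). psaC fell by 1.02, and psbB and atpI by 0.52 and 0.43. Against VC alone 0 of the 77 fell (limma), where 2.59% of all probe sets were called lower, and the psaJ difference was -0.57 (adjusted p = 0.052). Against Col-0 alone 30 of the 77 fell (39%, where 4.59% of all probe sets were called lower). The 18 falls became 2 when Col-0 replicate 2 was left out, 3 for VC replicate 2, 4 for ΔC26 replicate 2, 8 for VC replicate 1, 9 for ΔC27 replicate 1 and 10 for either FL3 array.

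The forms of TaSIN were compared directly. In FL3 against the mean of ΔC26 and ΔC27 0 of the 150 members passed (limma), where 0.207% of all probe sets did. At an unadjusted p under 0.05 there were 17 (11.3%), against 10.8% of all probe sets. The plastid median of that difference was 0.04, and it turned below 0 when FL3 replicate 2 (-0.06), ΔC26 replicate 2 (-0.04) or ΔC27 replicate 1 (-0.01) was left out. Between the truncated lines 2 members passed (1.33%, against 2.95% of all probe sets), ccb382 and AT2G26630, and 0 of the plastid ones (limma), with 11 of 77 plastid probe sets (14.3%) at an unadjusted p under 0.05, against 17.7% of all probe sets. In 29 of the 77 plastid probe sets both ΔC26 arrays lay above both ΔC27 arrays, where 22.9% of all probe sets did so, and the median of ΔC26 minus ΔC27 was 0.17. That median was 0.03 when ΔC27 replicate 1 was left out, 0.11 for ΔC26 replicate 1, and 0.27 and 0.26 for ΔC27 and ΔC26 replicate 2.

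The mitochondrial transcripts had a median difference from the controls of 0.03 in ΔC27, -0.01 in ΔC26 and -0.09 in FL3, and 1 of the 13 passed, in ΔC27 (7.69%, against 16.7% of all probe sets there). This was ccb382 (244912_at), now named ccmFN1, which encodes part of the machinery that attaches haem to c-type cytochromes in mitochondria. It was at 188 and 219 units in VC, 182 and 279 in Col-0, 276 and 256 in FL3, 228 and 364 in ΔC26 and 597 and 640 in ΔC27. Both ΔC27 arrays lay above all 8 others, and the FL3 and ΔC26 arrays overlapped those of the controls. In ΔC27 ccb382 rose by 1.46 ± 0.20, or 2.76-fold on the scale used (limma, Benjamini-Hochberg adjusted p = 0.0017), and it also rose against VC alone (1.53, adjusted p = 0.0047) and against Col-0 alone (1.39, adjusted p = 0.0054). The direct difference of ΔC26 minus ΔC27 was -1.06 and passed (adjusted p = 0.046 in the limma fit), but not when any array other than those of Col-0 was left out (0.057 to 0.12).

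The other 3 genes of cytochrome c maturation did not pass in any line. ccb452 was at 43.1 and 40.7 units in FL3 against 56.3 to 78.6 in the controls, a difference of -0.50 that did not pass (limma, Benjamini-Hochberg adjusted p = 0.12), and 63.5 and 82.4 in ΔC27. ccb203, which encodes another piece of the same protein as ccb382, and ccb206 had means below 16 and differences of 0.01 and 0.03 in ΔC27. Of the 5 nad genes, which encode subunits of respiratory complex I, nad4 was at 56.7 and 71.4 units in VC, 93.2 and 106 in Col-0, 60.3 and 63.6 in FL3, 65.8 and 63.2 in ΔC26 and 85.9 and 93.0 in ΔC27. Its Col-0 arrays were the highest, and none of its differences from the controls passed.

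The remaining mitochondrial probe sets had small differences in ΔC27 that did not pass. cox2, a subunit of the terminal oxidase, had -0.16 there and -0.31 in FL3. orfX, a protein of the membrane export pathway now named mttB, had 0.40 ± 0.22, and the probe set that reads rps3 and rpl16 had 0.37 ± 0.21. Of the 13 mitochondrial probe sets 5 carry the suffix for probes that can read several transcripts.

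Of the 15 members annotated to nuclear genes, 5 belong to the stretch of mitochondrial DNA inserted in a nuclear chromosome, where near-identical copies in both genomes cannot be told apart. AT2G07708, of that stretch, rose in ΔC27 by 0.79 (limma, Benjamini-Hochberg adjusted p = 0.0091) and the other 4 had differences of -0.01 to 0.17 that did not pass. AT2G26500, known as the nuclear-encoded PetM subunit of cytochrome b6f, was at 4756 and 5140 units in ΔC27 against 6384 to 7518 in the controls and fell by 0.46 (adjusted p = 0.033 in the limma fit). AT2G26630 rose in ΔC27 by 0.35, from 5.99 to 6.67 units in the controls to 13.3 and 11.4, still below the pseudocount.

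Among the 45 members with no gene, 4 passed in ΔC27 (8.89%, against 16.7% of all probe sets). The probe set 245038_at was at 1220 and 1004 units in VC, 1015 and 1803 in Col-0, 1678 and 696 in FL3, 1000 and 1110 in ΔC26 and 452 and 440 in ΔC27. Both ΔC27 arrays lay below all others, and it fell by 1.42 ± 0.32 (limma, Benjamini-Hochberg adjusted p = 0.014). 245043_at fell by 0.70, and 244903_at and 244904_at rose by 0.82 and 0.50.

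Nuclear genes whose products join the same complexes could be followed in part, since few of those listed could be matched by name to a probe set. Against the controls in ΔC27, of 2 subunits each, the photosystem I gene PSAN fell by 0.59 and PSAE-1 had -0.35, the photosystem II genes PSBW and PSBY had -0.33 and -0.21, and the NDH genes NdhL and NdhN fell by 0.86 and 1.02. In ΔC26 NdhL rose by 0.63 ± 0.14 (limma, Benjamini-Hochberg adjusted p = 0.044), and both NDH genes were higher in ΔC26 than in ΔC27, by 1.49 and 1.75 (adjusted p = 0.003 and 0.0035). PSAN was also higher in ΔC26 than in ΔC27, by 0.80 (adjusted p = 0.014 in the limma fit). Between the controls, PSAN, PSAE-1, PSBY, NdhL and NdhN had VC minus Col-0 differences above 0, from 0.03 to 0.57, and PSBW had -0.04, none past the threshold. The leaf marker LHCB4.1 fell by 0.50 in ΔC27 (adjusted p = 0.012), RCA had -0.15, and the part of leaf tissue in the plastid result was not tested. Of 14 listed alternative respiratory enzymes 5 were matched, all alternative NAD(P)H dehydrogenases. Of these 3 rose in ΔC27, where 8.2% of all probe sets were called higher: NDB2, NDB3 and NDB4, by 1.26, 2.33 and 1.22. NDB3 also rose in ΔC26, by 0.87 (adjusted p = 0.026 in the limma fit). NDB2 in ΔC26 and NDB2 and NDB3 in FL3 had 0.86, 0.62 and 0.68, which did not pass. NDB3 and NDB4 were lower in ΔC26 than in ΔC27, by 1.45 and 0.90 (adjusted p = 0.0053 and 0.02). For the mean of ΔC26 and ΔC27 the 3 rose by 1.06, 1.60 and 0.77. Of 37 listed genes for organelle RNA processing 2 were matched by name, OTP43 and CAF1, with 0.07 and -0.14 in ΔC27. No listed gene for sigma factors, phage-type polymerases or polymerase-associated proteins was matched by name, which does not mean that the array lacks them.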

How the data were processed

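The authors deposited 1 table of intensities on a linear scale (3.68 to 12648, judged from the values), one per probe set and array; how they summarised and normalized the arrays is not given in the sources used here. Of 22810 probe sets 64 controls were left out. The deposited intensities were transformed as log2(value + 16); 34.8% lay below 16, so changes of dim probe sets are understated. limma 3.58.1 in R 4.3.3 fitted 1 mean per line over 10 arrays (5 residual degrees of freedom, moderated variances with an intensity trend), tested each contrast on both sides and adjusted p by Benjamini and Hochberg across 22746 probe sets, at 0.05. The fit was tested on simulated data with independent noise per probe set and changes added in FL3 only. That does not cover probe sets that move together or a single shifted array. With 2 arrays per line their number limits the precision. Gene names come from the platform annotation and RefSeq's TAIR10.1 gene table, whose coordinates were used only to order the plastid genes. Figures were drawn with matplotlib 3.10.9.

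Members, gene lists and tests were chosen with earlier results of these data known. Named were, per contrast, all members past the threshold if at most 10, otherwise up to 10 largest rises and 10 largest falls with 1 gene and no overlap between arrays; per gene group, the brightest member and that with the largest difference; and list members past the threshold. By this rule psbM and ndhI, the brightest psb and ndh members, had -0.44 and -0.40 in ΔC27, which did not pass (limma, Benjamini-Hochberg adjusted p = 0.24 and 0.069). The brightest rpl member, rpl2, had 0.20 against VC alone and -0.20 against Col-0 alone in ΔC27. The largest difference among the other plastid genes was -0.67 for ycf4 in ΔC26. Neither rpl2 nor ycf4 passed. Other members are named to complete a group or an operon, after their values were seen. Alternatives were quantile normalization, centring arrays on the median over all probe sets or over those outside the members, a replicate block, removal of the dimmest probe sets, pseudocounts of 1 and 64, no variance trend, each control alone and leaving out each array.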

Additional observations from a re-analysis of the deposited data

Results flagged for a closer look

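Members of the block whose differences from the same controls in ΔC26 and ΔC27 differed by the direct test were ccb382 (log2 difference of ΔC26 minus ΔC27 of -1.06) and AT2G26630 (-0.31). The ccb382 call ended when any 1 of 8 of the 10 arrays was left out (limma, highest adjusted p = 0.12). AT2G26630 lay below 16 units on all 10 arrays.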

How the results depend on the processing

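Counts of members past the threshold out of 150 moved as follows. The share of all probe sets in the same fit is given only for each control alone. With quantile normalization there were 20 in ΔC27 and 15 in ΔC26 and ΔC27 together, against 31 and 24. Without a variance trend ΔC26 and ΔC26 against ΔC27 gave 1 each. Against VC alone there were 0 in FL3, 0 in ΔC26, 6 in ΔC27 and 3 in ΔC26 and ΔC27 together. These were 0%, 0%, 4% and 2% of the members, against 1.72%, 0.976%, 11.1% and 6.13% of all probe sets. Against Col-0 alone there were 3, 2, 38 and 36. These were 2%, 1.33%, 25.3% and 24% of the members, against 1.72%, 1.78%, 12.9% and 9.2% of all probe sets. Leaving out 1 array at a time gave 0 to 3 in FL3, 0 to 9 in ΔC26, 10 to 33 in ΔC27, 7 to 31 in ΔC26 and ΔC27 together, 0 to 1 in VC against Col-0, 0 to 3 in FL3 against both truncated lines and 0 to 5 in ΔC26 against ΔC27. No value changed sign past the threshold. The ccb382 call in ΔC27 held under every alternative run. Over all probe sets, same-numbered arrays of different lines correlated in their deviations at -0.2 to 0.086 (10 pairs of lines). Over the plastid ones they correlated at -0.243 to 0.119. The numbers were not taken to pair the samples, but a correlation does not register a shift shared by all plastid probe sets. In the plastid probe sets replicate 2 was nevertheless the higher array in 57 of 77 in VC, 69 in Col-0, 62 in FL3 and 67 in ΔC27, and in 30 in ΔC26. With the replicate block there were 3 in FL3, 2 in ΔC26, 27 in ΔC27, 22 in ΔC26 and ΔC27 together, 0 in VC against Col-0, 0 in FL3 against both truncated lines and 2 in ΔC26 against ΔC27. The cause of these changes was not tested, and 2 arrays per line and dim mitochondrial probe sets limit what could be detected.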
